A study of Mus musculus with 12 samples.

Results

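The transcripts of 10 transcription factors of the AP-1 and ATF3 families (Fos, Fosb, Fosl1, Fosl2, Jun, Junb, Jund, Atf3, Batf and Maff) were examined in RAW264.7 cells, a mouse macrophage line. They were found by symbol in a table of 18190 genes, each in 1 row. The study addressed DCLK1 (doublecortin-like kinase 1) and NF-κB signalling, and poly(A) RNA was sequenced from 12 libraries in 4 groups of 3. Control cells were a clonal line with a negative control shRNA (their knockdown label reads none), and shDCLK1 cells a clonal line with a stable shRNA against DCLK1. Each line was left untreated or given 500 ng/ml lipopolysaccharide (LPS, a bacterial surface glycolipid that activates TLR4) for 6 h. Since each line is 1 clone, the effect of the shRNA and other differences between the clones cannot be told apart. Values are FPKM, fragments scaled by transcript length and by library size, so levels of different genes are set side by side per length. Group values are mean ± SD (n = 3).

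AP-1 is a dimer of basic leucine zipper (bZIP) proteins that binds DNA at the TPA response element. A Jun protein (Jun, JunB, JunD) pairs with itself or with a Fos protein (Fos, FosB, Fra-1 from Fosl1, Fra-2 from Fosl2), and Fos proteins need a Jun partner to bind. ATF3 is a stress-induced bZIP protein that binds related sites and is known in mouse macrophages as a brake on inflammatory genes. BATF pairs with Jun proteins and binds together with IRF4 or IRF8, and MafF, a small MAF protein without an activation domain, pairs with CNC-type bZIP proteins such as NRF2. In macrophages, LPS activates MAP kinases that raise and phosphorylate several of these factors, some of them within minutes and only briefly, so a sample at 6 h shows a late state.

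FPKM sums ranged from 457695 to 495373 per library. Read totals were not given, and from steps in the values of 63 low genes the depth relative to the median library was 0.973 to 1.013, by a choice of genes that favours equal depths. Dclk1 was at most 0.01 FPKM in any library, so the knockdown could not be checked and the groups rest on their labels. Of 10 macrophage markers 9 reached 1 FPKM, and Mertk did not. Fibroblast and epithelial markers stayed under 1 FPKM in every library. The summed neutrophil and mast cell markers were 0 to 0.06 FPKM in untreated libraries, 1.74 to 2.06 in control cells with LPS and 2.08 to 4.39 in shDCLK1 cells with LPS, and the adipocyte sums 0 to 0.12, 0.09 to 0.43 and 1.38 to 2.05. Of these lists, 5 of 8 and 3 of 5 markers were measured. The sums rested on S100a8 (up to 4.37 FPKM) and Fabp4 (up to 2.05), while the other measured markers of both lists stayed at or under 0.06. The lymphocyte sums were 0.08 to 0.41 FPKM in untreated libraries and 0.75 to 1.5 with LPS, with Pax5 reaching 1.3. The part of these markers in the results was not tested. In bulk RNA, fewer cells that express a gene and less of its RNA per cell cannot be told apart.

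The promoters of 4 members are shown because these genes moved in different ways: Jun fell with LPS in both lines, Fos was higher in shDCLK1 cells in both states, Fosl2 changed the sign of its line difference with LPS, and Atf3 rose with LPS in control cells but not in shDCLK1 cells. The sequences are from RefSeq on GRCm38.p6, from 250 bases before to 50 after the annotated start, and 9 of the 10 members (all but Fosl1) have a window there. Capitals mark matches, on either strand, to the TPA response element (TGANTCA), the cAMP response element core (TGACGT), a Jun-type variant (TGACATCA), an NF-κB site or a CArG box, the site of serum response factor. The windows lie at chr4:95052173-95052472 on the minus strand for Jun, chr12:85473640-85473939 on the plus strand for Fos, chr5:32136222-32136521 on the plus strand for Fosl2 and chr1:191183284-191183583 on the minus strand for Atf3.
Jun: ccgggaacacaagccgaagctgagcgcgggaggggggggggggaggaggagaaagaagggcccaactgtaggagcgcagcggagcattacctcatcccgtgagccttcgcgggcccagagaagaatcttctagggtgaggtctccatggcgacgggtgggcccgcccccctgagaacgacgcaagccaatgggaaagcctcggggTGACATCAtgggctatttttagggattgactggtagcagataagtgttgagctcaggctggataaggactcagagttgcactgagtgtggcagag
Fos: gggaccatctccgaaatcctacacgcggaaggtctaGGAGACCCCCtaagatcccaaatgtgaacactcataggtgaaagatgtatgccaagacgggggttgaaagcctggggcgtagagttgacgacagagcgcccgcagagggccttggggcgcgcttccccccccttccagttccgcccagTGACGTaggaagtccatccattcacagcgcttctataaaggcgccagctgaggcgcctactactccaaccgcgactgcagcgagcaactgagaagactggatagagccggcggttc
Fosl2: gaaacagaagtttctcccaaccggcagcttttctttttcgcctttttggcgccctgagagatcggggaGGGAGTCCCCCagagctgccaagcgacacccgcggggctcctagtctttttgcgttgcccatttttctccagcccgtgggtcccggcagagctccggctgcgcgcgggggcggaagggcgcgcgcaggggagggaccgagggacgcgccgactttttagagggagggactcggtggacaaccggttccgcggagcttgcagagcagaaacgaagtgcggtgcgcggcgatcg
Atf3: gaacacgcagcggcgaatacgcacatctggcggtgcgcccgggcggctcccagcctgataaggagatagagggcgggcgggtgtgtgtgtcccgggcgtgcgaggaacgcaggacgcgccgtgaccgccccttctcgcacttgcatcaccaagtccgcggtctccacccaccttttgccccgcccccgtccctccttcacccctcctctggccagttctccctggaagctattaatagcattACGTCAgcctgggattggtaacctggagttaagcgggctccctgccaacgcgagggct
Jun held the Jun-type variant TGACATCA from 45 to 38 bases before the start. Fos held an NF-κB match and the core TGACGT, whose first base lies 66 bases before the start. In Fosl2, 2 overlapping NF-κB matches form the run in capitals. Atf3 held the core on the other strand, read as ACGTCA. Among the members not shown, Batf and Maff held the core, Fosb and Maff an NF-κB match and Maff the Jun-type variant. In Maff, which has more than 1 window, the core is part of a full cAMP response element, TGACGTCA. Counted by window, the core was in 4 of the members' 11 windows (7.51% of all 32851 windows), the NF-κB match in 4 (8.46%), the Jun-type variant in 2 (3.62%) and the full element in 1 (1.79%). Maff, with 3 of the 11 windows, held each of these 4 kinds. Neither the TPA response element (7.81% of windows) nor the CArG box (1.63%) was found in these members' windows. Sequence further than 250 bases before the start was not searched, so sites there would be missed. A match describes letters in a window and is not a bound site.

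LPS raised most of these genes in both lines, while Jun fell in both and Atf3 rose in control cells alone. Of the 10 members, 9 passed the filter of 1 FPKM in at least 3 libraries. Batf passed it through its LPS libraries alone, so its rise was bound to be large, and Fosb did not pass. In the limma fit 8 tested members rose with LPS in control cells and 1, Jun, fell. Over all 11052 genes tested, 86.9% were called, with 24.8% higher and 62.1% lower. In shDCLK1 cells 7 members rose and 2, Jun and Atf3, fell, against 84.6% of all genes called, with 24.9% higher and 59.7% lower. The median log2 change of the 9 tested members was 1.29 in control cells and 0.77 in shDCLK1 cells, and that of all tested genes -0.38 and -0.29, as a description. No member's LPS libraries overlapped its untreated libraries in either line, and neither did those of 87.8% of all tested genes in control cells and 84.5% in shDCLK1 cells, so this is near the background. The adjusted p-values given here come from limma, by the Benjamini-Hochberg method across all genes tested. A log2 change is a difference in log2(FPKM + 1), so for low genes it is smaller than the true change. The labels do not tell whether the 3 libraries of a group were separate cultures, and p may reflect technical spread alone.

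**Figure D1:**
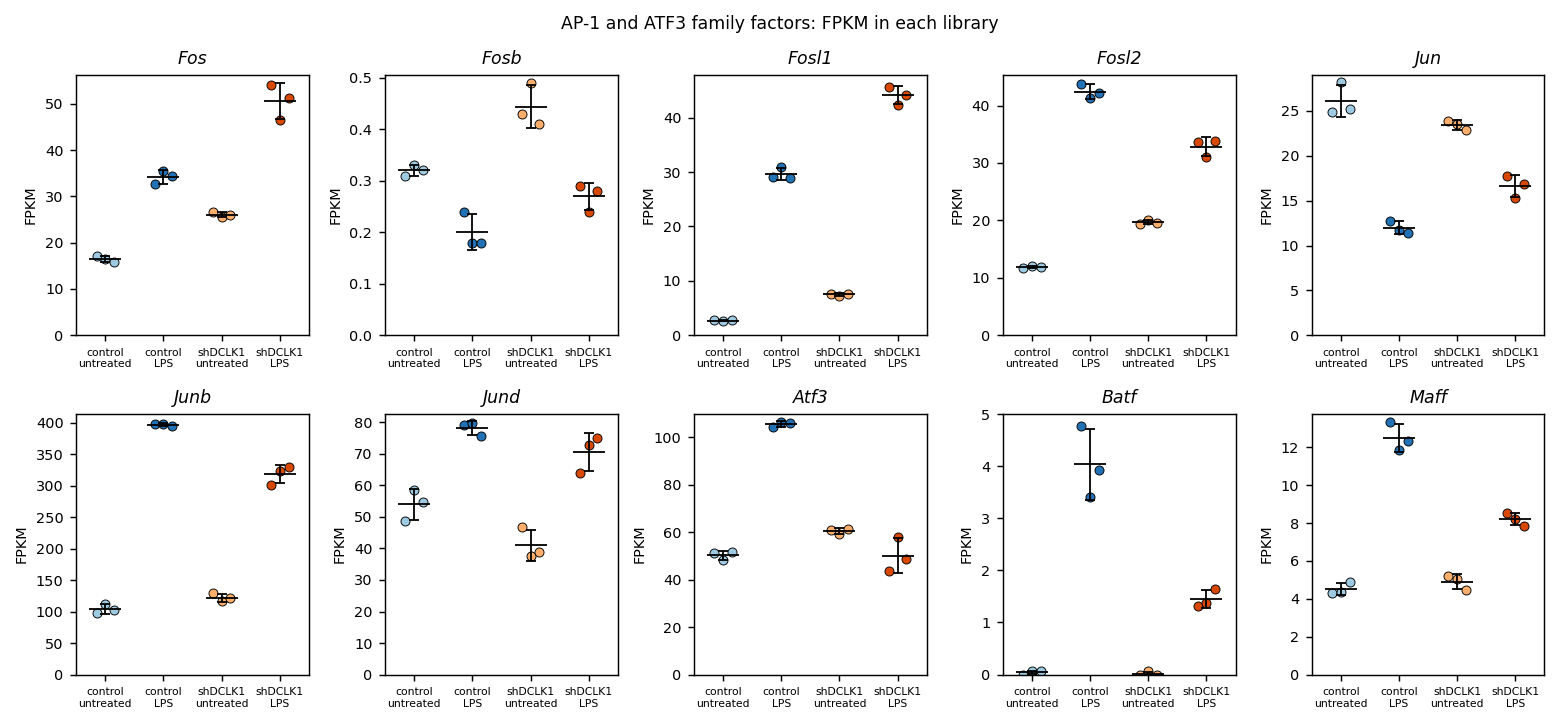
FPKM of each of the 10 genes (y axis, from 0, a scale of its own per gene) in the 4 groups (x axis), with 1 point per library, the mean as a bar and ± SD as whiskers (n = 3). Fosl1 and Fos stand highest in shDCLK1 cells with LPS, Junb, Fosl2, Jund, Atf3, Batf and Maff in control cells with LPS, Fosb in untreated shDCLK1 cells and Jun in untreated control cells.

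Before LPS the lines differed in some members. Of the 9 tested, 5 were higher in shDCLK1 cells (21.4% of all genes) and 1, Jund, was lower (23.6%), where 45.0% of all genes were called, while Jun, Batf and Maff were not called. With LPS, 3 members (Fos, Fosl1 and Jun) were higher in shDCLK1 cells and 5 were lower, against 34.3% and 14.3% of all genes (48.6% in either direction). Jund was not called. The LPS response itself differed between the lines (interaction) in 7 members: it was lower in shDCLK1 cells for 6 and higher for Jun, against 16.9% and 32.6% of all genes (49.4% in either direction). Fos and Jund were not called there. The lean of all genes toward a higher response depended on the scaling. As deposited 3601 were higher and 1863 lower, and after median-of-ratios scaling 2555 and 2582.

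Among the Jun proteins, Junb was the most abundant of the 10 transcripts in every group. Its libraries 1 to 3 held 97.91, 112.24 and 102.83 FPKM in untreated control cells and 398.55, 398.32 and 394.6 with LPS. In shDCLK1 cells they held 128.85, 116.77 and 121.07 FPKM untreated and 302.09, 323.01 and 329.33 with LPS. The order of the groups was control with LPS, shDCLK1 with LPS, untreated shDCLK1 and untreated control, with no overlap between neighbours. Junb rose 3.81-fold in control cells (1.92 log2 units, SE 0.0502, adjusted p = 7.67e-13) and 2.60-fold in shDCLK1 cells (1.37, SE 0.0502, adjusted p = 3.23e-11). The difference between these responses was -0.55 log2 units (SE 0.0711, adjusted p = 4.96e-05). Untreated shDCLK1 cells held 1.17-fold more than control cells (adjusted p = 0.00282), and with LPS the ratio was 0.801 (adjusted p = 2.19e-04). Junb thus lay above control cells before LPS and below them after it.

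Jun, the founding member of the family, went the other way. It measured 24.92, 28.21 and 25.19 FPKM in the untreated control libraries and fell to 12.77, 11.78 and 11.4 with LPS. shDCLK1 cells held 23.91, 23.49 and 22.84 FPKM untreated and 17.7, 15.27 and 16.83 with LPS. All 4 groups were apart, with untreated control cells highest and control cells with LPS lowest. The fall was 1.06 log2 units in control cells (log2 change -1.06, SE 0.0600, adjusted p = 1.90e-09) and smaller in shDCLK1 cells (-0.47, SE 0.0600, adjusted p = 7.85e-06). Median-of-ratios scaling, which sets the median change of all genes near 0, left a change of -0.66 in control cells and -0.15 in shDCLK1 cells (adjusted p = 0.0275). The responses differed by 0.59 log2 units (SE 0.0848, adjusted p = 1.18e-04). Untreated lines differed by -0.15 log2 units (95% interval -0.28 to -0.02, adjusted p = 0.0609), and with LPS shDCLK1 cells held 1.39-fold more Jun (adjusted p = 7.38e-05). The adjusted p for untreated cells ran from 0.0372 to 0.237 when 1 library was left out, and it was called without the first or the second shDCLK1 library with LPS, which enter it only through the shared spread.

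Jund encodes the Jun protein usually present in resting cells. It measured 48.69, 58.62 and 54.71 FPKM in the untreated control libraries and 79.3, 79.8 and 75.7 with LPS. The shDCLK1 libraries had Jund at 46.68, 37.63 and 38.89 FPKM untreated and 63.81, 72.85 and 75.05 with LPS. It rose in control cells by 0.53 log2 units (SE 0.0852, adjusted p = 6.44e-05), and by 0.77 in the shDCLK1 line (adjusted p = 2.17e-06). Untreated shDCLK1 cells held 0.760 of the control level (-0.39 log2 units, adjusted p = 0.00267). After LPS the difference was -0.15 log2 units (95% interval -0.34 to 0.04, adjusted p = 0.167), and median-of-ratios scaling brought a call (-0.23, adjusted p = 0.0438). The interaction of 0.24 had an interval from -0.02 to 0.50 (adjusted p = 0.12). That interaction was called without the first untreated control library or the first untreated shDCLK1 library (lowest adjusted p = 0.0205). These libraries were, respectively, the lowest and the highest of their groups for Jund.

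The Fos genes were higher in untreated shDCLK1 cells. Among members measurable without LPS, Fosl1, whose product Fra-1 lacks a strong activation domain, had the largest change with LPS. It measured 2.73, 2.61 and 2.72 FPKM in the untreated control libraries and 29.02, 30.85 and 28.97 with LPS. The shDCLK1 libraries had Fosl1 at 7.67, 7.15 and 7.67 FPKM untreated and 45.74, 42.4 and 44.2 with LPS. The 4 groups did not overlap, and shDCLK1 cells were above control cells in both states. With LPS it rose 11.02-fold in control cells (3.05 log2 units, SE 0.0413, adjusted p = 1.54e-15) and 5.88-fold in shDCLK1 cells (2.41, SE 0.0413, adjusted p = 2.78e-14). The interaction was -0.64 log2 units (SE 0.0584, adjusted p = 2.27e-06). The line ratio was 2.79 in untreated cells (adjusted p = 2.46e-10) and 1.49 with LPS (adjusted p = 3.59e-07), so Fosl1 started higher and ended higher in shDCLK1 cells while its fold was smaller.

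Fos, the classical immediate-early member, measured 17.17, 16.55 and 15.77 FPKM in the untreated control libraries and 32.65, 35.5 and 34.47 with LPS. The shDCLK1 libraries had Fos at 26.57, 25.56 and 26.03 FPKM untreated and 54.04, 46.53 and 51.29 with LPS. The 4 groups did not overlap and stood in the same order as for Fosl1. LPS raised it 2.07-fold in control cells (adjusted p = 6.84e-10) against 1.94-fold in the shDCLK1 line (adjusted p = 2.06e-09). shDCLK1 cells held 1.58-fold more untreated (0.63 log2 units, SE 0.0516, adjusted p = 9.73e-07) and 1.48-fold more with LPS (0.55, SE 0.0516, adjusted p = 2.81e-06). The interaction was -0.08 log2 units with a 95% interval from -0.24 to 0.08 (adjusted p = 0.394), and it was called after quantile normalization (-0.20, adjusted p = 0.0355).

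Fosl2, which encodes Fra-2, crossed over. It measured 11.78, 12.11 and 11.81 FPKM in the untreated control libraries and 43.8, 41.33 and 42.2 with LPS. The shDCLK1 libraries had Fosl2 at 19.39, 20.03 and 19.55 FPKM untreated and 33.74, 31.02 and 33.8 with LPS. Untreated shDCLK1 cells held 1.65-fold more than control cells (0.68 log2 units, SE 0.0374, adjusted p = 2.42e-08), and with LPS they held 0.774 of the control level (-0.36, adjusted p = 6.78e-06). Its rise was 3.57-fold in control cells (1.75 log2 units, adjusted p = 1.06e-13) and 1.67-fold in shDCLK1 cells (0.71, adjusted p = 1.17e-09), a difference of -1.04 (SE 0.0528, adjusted p = 1.38e-08). Fosb, whose product is otherwise a close relative of Fos, stayed between 0.18 and 0.49 FPKM in all libraries. Control cells averaged 0.320 ± 0.0100 FPKM untreated and 0.200 ± 0.0346 with LPS, and shDCLK1 cells 0.443 ± 0.0416 and 0.270 ± 0.0265. With no filter on low values, its change with LPS was called in control cells (-0.14 log2 units, adjusted p = 0.00167) and also in the shDCLK1 line (-0.18, adjusted p = 2.21e-04). Fosb was thus lower with LPS while the other Fos genes were higher, and other scalings were not run for it.

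**Figure D2:**
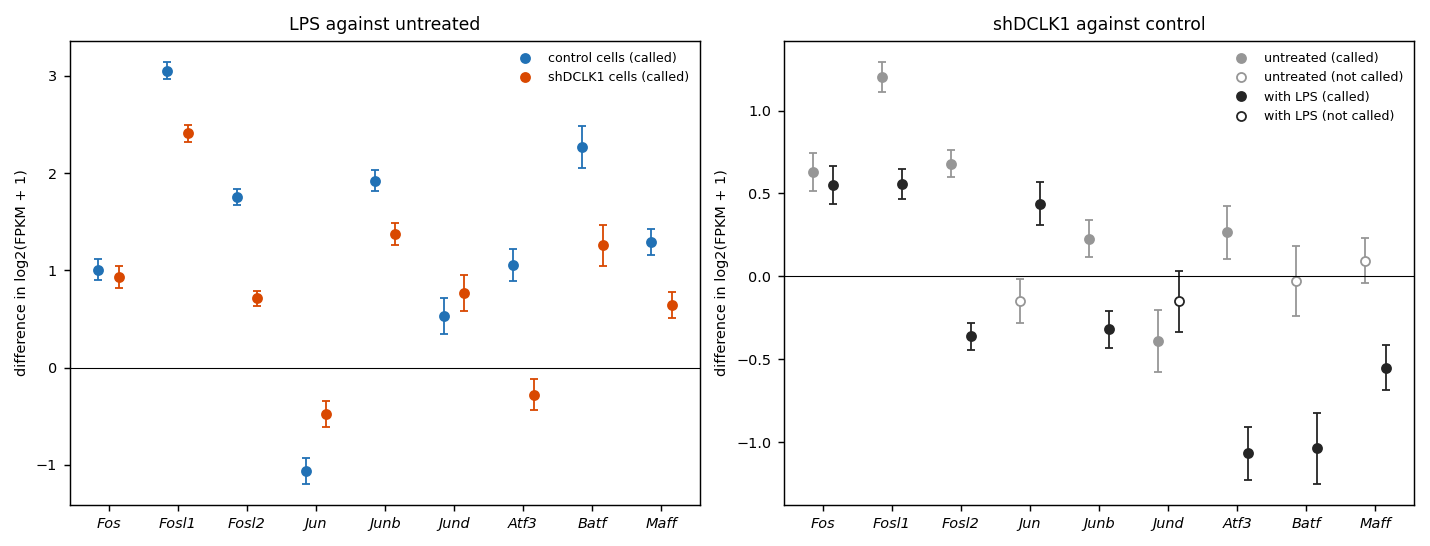
Differences in log2(FPKM + 1) for the 9 tested genes with 95% intervals from limma. The left panel shows LPS against untreated in each line, the right panel shDCLK1 against control in each state, and open points were not called. Atf3 is above 0 in control cells and below it in shDCLK1 cells, Jun is below 0 in both, and Fosl2 and Junb switch sides between the states in the right panel.

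Atf3 had the largest difference between the lines in its LPS response. It measured 51.03, 48.04 and 51.47 FPKM in the untreated control libraries and 104.07, 106.34 and 105.84 with LPS. The shDCLK1 libraries had Atf3 at 60.85, 59.22 and 61.43 FPKM untreated and 43.69, 58.13 and 48.49 with LPS. The second shDCLK1 library with LPS was the highest of its group, and the group's range overlapped that of untreated control cells. Control cells with LPS stood above all others. The rise in control cells was 2.10-fold (1.06 log2 units, SE 0.0742, adjusted p = 1.83e-08). In shDCLK1 cells the change was -0.28 log2 units as deposited (SE 0.0742, adjusted p = 0.00382), and median-of-ratios scaling turned it to 0.05 (adjusted p = 0.521). The interaction was -1.33 log2 units (SE 0.105, adjusted p = 6.69e-07) and -1.43 after that scaling. Untreated shDCLK1 cells held 1.21-fold more than control cells (adjusted p = 0.0115), and with LPS the ratio was 0.475 (-1.07 log2 units, adjusted p = 2.07e-07).

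Batf was near the floor without LPS. It was listed at 0, 0.06 and 0.06 FPKM in the untreated control libraries, and at 0, 0.06 and 0 in those of shDCLK1 cells. After LPS it reached 4.77, 3.42 and 3.93 FPKM in control cells and 1.31, 1.38 and 1.64 in shDCLK1 cells. All LPS libraries were above all untreated ones, and with LPS the shDCLK1 libraries were below the control libraries. The line difference with LPS was -1.04 log2 units (SE 0.0975, adjusted p = 2.82e-06), a ratio of 0.357. Maff measured 4.31, 4.35 and 4.89 FPKM in the untreated control libraries and 13.31, 11.84 and 12.32 with LPS. The shDCLK1 libraries had Maff at 5.19, 5.04 and 4.44 FPKM untreated and 8.51, 8.22 and 7.86 with LPS. The untreated lines overlapped, with a difference of 0.09 log2 units (95% interval -0.04 to 0.23, adjusted p = 0.246). Maff rose 2.77-fold in control cells (adjusted p = 3.92e-10) against 1.68-fold in the shDCLK1 line (adjusted p = 5.93e-07), and the interaction was -0.65 log2 units (SE 0.0885, adjusted p = 7.78e-05). Batf and Maff shared with Atf3, Junb and Fosl2 a lower level in shDCLK1 cells than in control cells after LPS.

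The direction of the members' LPS changes held under other scalings, with Atf3 in shDCLK1 cells as the exception given above. With LPS, all tested genes had a median change of -0.38 log2 units in control cells and -0.29 in shDCLK1 cells as deposited. After median-of-ratios scaling the split of all genes was 4730 higher and 4715 lower in control cells, against 2741 and 6863 as deposited. In shDCLK1 cells it was 4583 and 4539, against 2747 and 6602. With LPS, the line comparison of all genes had 3788 higher and 1583 lower as deposited. It had 2748 and 2652 after median-of-ratios scaling, and 2356 and 2744 after quantile normalization. For the interaction, 3601 were higher and 1863 lower as deposited. Median-of-ratios scaling gave 2555 and 2582 there, and quantile normalization 2710 and 2394.

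**Figure D3:**
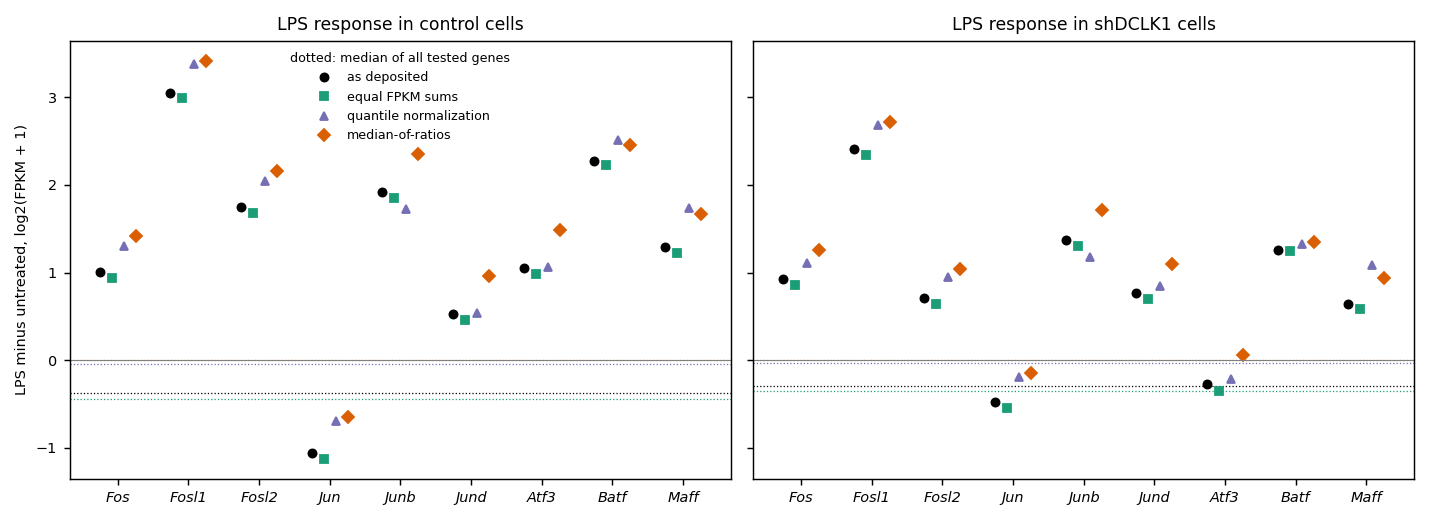
LPS minus untreated in log2(FPKM + 1) for the 9 tested genes (x axis) in control cells (left) and shDCLK1 cells (right), as deposited and under 3 other scalings, with dotted lines at the median of all tested genes. Jun stays below 0 under each of them, and Atf3 in shDCLK1 cells is above 0 (0.05) only after median-of-ratios scaling.

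Added up, the 10 transcripts came to 271 ± 12.2 FPKM in untreated control cells and 716 ± 5.39 with LPS. In shDCLK1 cells the sum was 306 ± 12.4 FPKM untreated and 593 ± 19.7 with LPS. Junb took 38.5% ± 0.977 of the sum in untreated control cells and 55.5% ± 0.119 with LPS, and 40.0% ± 0.406 and 53.6% ± 0.639 in shDCLK1 cells. The share of Jun went from 9.64% ± 0.313 to 1.67% ± 0.0910 in control cells and from 7.66% ± 0.252 to 2.80% ± 0.278 in shDCLK1 cells. The ratio of Junb to Jun was 3.997 ± 0.0782 in untreated control cells and 33.2 ± 1.78 with LPS. In shDCLK1 cells it was 5.22 ± 0.220 untreated and 19.3 ± 2.06 with LPS. LPS therefore shifted the Jun genes from Jun toward Junb in both lines, and the ratio reached a lower value in shDCLK1 cells.

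The balance of Fos to Jun genes also differed by line. Fos, Fosb, Fosl1 and Fosl2 summed to 31.4 ± 0.706 FPKM without LPS in control cells and to 53.7 ± 0.415 in shDCLK1 cells. With LPS they summed to 106 ± 1.21 and 128 ± 6.97 FPKM. The Jun genes summed to 184 ± 13.9 and 187 ± 11.3 FPKM in the untreated lines, and to 487 ± 4.96 and 405 ± 19.5 with LPS. The ratio of the sums was 0.171 ± 0.0142 in untreated control cells, 0.218 ± 0.00259 with LPS, 0.288 ± 0.0149 in untreated shDCLK1 cells and 0.316 ± 0.0292 with LPS. Every shDCLK1 library had a higher ratio than every control library. Within the Fos genes, the ratio of Fosl1 to Fosl2 was 0.698 ± 0.0432 in control cells with LPS and 1.34 ± 0.0314 in shDCLK1 cells with LPS. These sums and ratios describe the members, and no test was made of them.

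**Figure D4:**
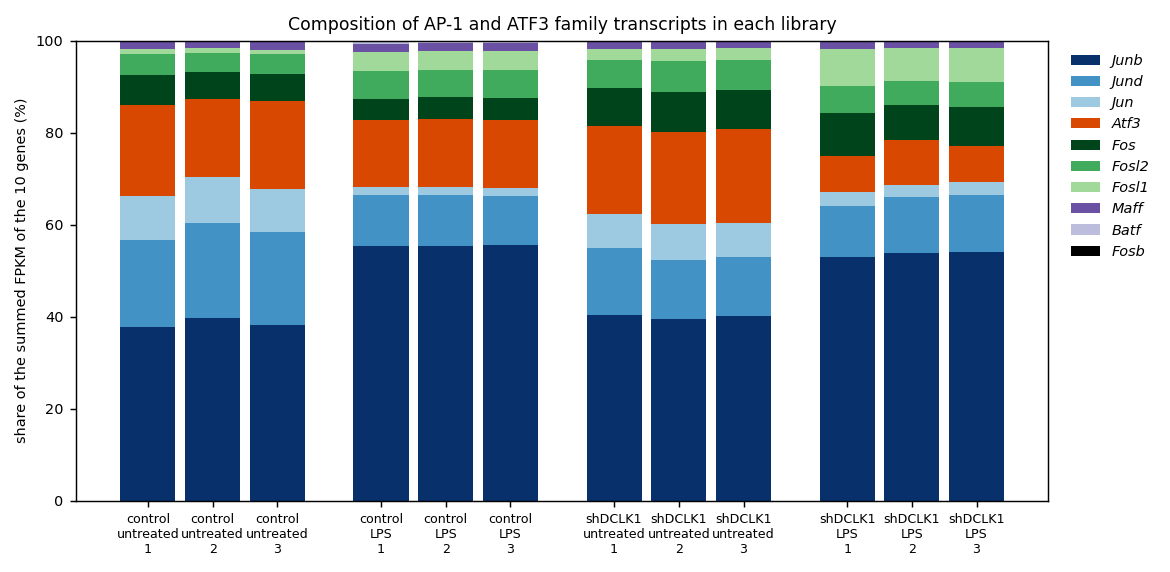
Share of each gene in the summed FPKM of the 10 genes (y axis, percent) for each of the 12 libraries (x axis). Junb takes 37.8% to 40.3% without LPS and 52.9% to 55.6% with it, and Atf3 takes 7.65% to 9.70% in shDCLK1 cells with LPS against 14.5% to 14.9% in control cells with LPS.

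Among the 10, the order of levels in untreated control cells was Junb, Jund, Atf3, Jun, Fos, Fosl2, Maff, Fosl1, Fosb and Batf, and Jund and Atf3 overlapped. With LPS in control cells Fosl2 (42.4 ± 1.25 FPKM), Fos (34.2 ± 1.44) and Fosl1 (29.6 ± 1.07) all stood above Jun (11.98 ± 0.707), which overlapped Maff (12.5 ± 0.750). In shDCLK1 cells with LPS, Fos (50.6 ± 3.80 FPKM), Atf3 (50.1 ± 7.35) and Fosl1 (44.1 ± 1.67) overlapped as neighbours below Junb and Jund. Fosl1 thus moved up the order with LPS in both lines.

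Genes whose log2(FPKM + 1) followed a member most closely over the 12 libraries were named by Pearson's r, as a description, among 8017 other genes (8018 for Batf) with a mean of 5 FPKM or more. The 12 libraries fall into 4 groups, so r is set largely by the group means. Fosl1 was followed by Tlr3, the receptor for double-stranded RNA (r = 0.999), and by the tetraspanin Cd63 (r = 0.999). Fos was followed by the hexokinase Hk3 (r = 0.996) and the cathepsin Ctsz (r = 0.995), which like Fos were highest in shDCLK1 cells with LPS. For Fosl2 they were Calcrl, a receptor subunit for calcitonin-family peptides (r = 0.999), and Vcpip1 (r = 0.995). Junb was followed by Slc12a9 (r = 0.999) and the major vault protein Mvp (r = 0.998), and Jun by Mrpl15, of the mitochondrial ribosome (r = 0.995), and Fmnl1 (r = 0.991). Batf was followed by Noct (r = 0.995) and Fam129a (r = 0.9945), and Maff by Selk (r = 0.993) and the zinc transporter Slc39a7 (r = 0.992). The closest to Jund were Rabep2 (r = 0.983) and Fau (r = 0.980). Atf3 had the fewest close followers: Mbd2 (r = 0.972) and the stress-induced Nupr1 (r = 0.966). It had 5 genes over 0.95, with Jund near it at 13, against 584 for Fosl1 and 1033 for Jun. Nupr1 went from 56.7 to 183 FPKM in control cells and from 67.9 to 68.7 FPKM in shDCLK1 cells.

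Other bZIP factors that pair with or resemble AP-1 were read from the same fit. Of 29 listed, 23 were tested, and in control cells LPS raised 12 and lowered 10, against 24.8% and 62.1% of all genes. In shDCLK1 cells it raised 8 and lowered 14, against 24.9% and 59.7%. After median-of-ratios scaling it raised 15 and lowered 7 in control cells, beside 4730 and 4715 of all 11052 genes. In shDCLK1 cells the counts after that scaling were 10 and 11, beside 4583 and 4539. Untreated shDCLK1 cells had 15 higher and 1 lower, where 21.4% and 23.6% of all genes were so called, and with LPS they had 5 higher and 10 lower, against 34.3% and 14.3%. The LPS response was lower in shDCLK1 cells for 17 and higher for 4 (interaction), against 16.9% and 32.6% of all genes. After median-of-ratios scaling it was lower for 17 and higher for 3, beside 2582 and 2555 of all genes. The list had a median LPS change of 0.23 log2 units in control cells and -0.29 in shDCLK1 cells (all genes -0.38 and -0.29), and their median line difference 0.22 untreated and -0.11 with LPS (all genes -0.02 and 0.07). Batf2, a relative of BATF induced by interferon, rose by 3.87 log2 units in control cells and 2.91 in shDCLK1 cells, to 35.2 ± 1.63 and 33.7 ± 1.60 FPKM. Atf5, a stress-response relative of ATF4, had the largest interaction (-1.73 log2 units, SE 0.0831, adjusted p = 8.26e-09). It went from 47.2 ± 3.47 to 104 ± 2.69 FPKM in control cells and from 89.1 ± 5.63 to 58.3 ± 3.25 in shDCLK1 cells. Cebpd, an LPS-induced C/EBP factor, rose by 2.73 log2 units in control cells. Cebpa, the myeloid differentiation factor, averaged 15.6 ± 1.17 FPKM in untreated shDCLK1 cells against 5.94 ± 0.151 in control cells and fell with LPS in both lines (-3.09 log2 units in shDCLK1 cells). Nfil3 was at 58.0 ± 0.0872 and 33.7 ± 2.40 FPKM with LPS. Atf5 and Nfil3, like Atf3, were below control cells after LPS.

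The kinases and nuclear factors upstream of AP-1 mostly fell with LPS as deposited, but not after median-of-ratios scaling. Of 30 listed, 28 were tested, and 6 rose and 22 fell in control cells, while 6 rose and 21 fell in shDCLK1 cells. These counts stand beside 24.8% higher and 62.1% lower among all genes in control cells and 24.9% and 59.7% in shDCLK1 cells, and 1 gene that fell, Rps6ka5, passed the filter through untreated libraries alone. After median-of-ratios scaling the counts were 11 and 12 in control cells, beside 4730 and 4715 of all genes. In shDCLK1 cells they were 11 and 13, beside 4583 and 4539. Quantile normalization gave 9 and 13 in control cells, beside 4376 and 4960 of all genes. In shDCLK1 cells it gave 9 and 14, beside 4240 and 4815. Their median change as deposited was -0.40 log2 units in control cells and -0.38 in shDCLK1 cells, close to that of all genes (-0.38 and -0.29), and their median line difference 0.03 untreated and 0.02 with LPS. Elk3, an ETS factor that acts with serum response factor, went from 28.3 ± 0.397 to 3.72 ± 0.0896 FPKM in control cells and from 24.8 ± 0.913 to 8.35 ± 0.556 in shDCLK1 cells (interaction 1.17 log2 units, adjusted p = 2.26e-08). Mef2c fell by 2.11 log2 units in control cells (log2 change -2.11), and the kinases Rps6ka5 and Rps6ka1 changed by -1.79 and -1.66 in shDCLK1 cells. Map3k8, the kinase that feeds TLR signals into ERK, went from 2.53 ± 0.156 to 13.4 ± 0.505 FPKM in control cells and from 3.15 ± 0.0513 to 7.99 ± 0.658 in shDCLK1 cells (interaction -0.92, adjusted p = 1.71e-06). Without LPS, Map2k4, which activates JNK, was lower in shDCLK1 cells (-0.45 log2 units, adjusted p = 8.23e-07) and Mapkapk2, a p38 target kinase, was higher (0.32, adjusted p = 5.14e-06). Between the lines 8 were higher and 7 lower untreated (21.4% and 23.6% of all genes). With LPS 8 were higher and 5 lower (34.3% and 14.3% of all genes). Median-of-ratios scaling gave 6 and 8 with LPS, beside 2748 and 2652 of all genes.

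Of 18 textbook AP-1 target genes 16 were tested, and 4 of them (Mmp9, Mmp13, Il6 and Ccl2) passed the filter through LPS libraries alone, so that their rise was bound to occur. Of the other 12, LPS raised 9 and lowered 3 in each line, against 24.8% of all genes higher and 62.1% lower in control cells and 24.9% and 59.7% in shDCLK1 cells. Over all 16, untreated shDCLK1 cells had 7 higher and 0 lower by limma (8 and 0 at an unadjusted p under 0.05). The shares of all genes were 21.4% and 23.6%. After quantile normalization the counts were 7 and 1, beside 2189 and 2993 of all 11052 genes. Mmp9, Mmp13, Il6 and Ccl2 lay under 1 FPKM in every untreated library. That left them little room for a lower call, so the 0 rests on the other 12. Among the 7, Il6 lay under 1 FPKM in both lines, at 0.297 ± 0.0503 against 0.0167 ± 0.0289 in control cells. With LPS, shDCLK1 cells had 11 of the 16 higher and 3 lower, against 34.3% and 14.3%. After median-of-ratios scaling the counts were 9 and 4, beside 2748 and 2652 of all genes. Mmp13 was among those higher, at 1.32 ± 0.231 FPKM against 0.473 ± 0.0777 in control cells with LPS. It passed the filter through shDCLK1 libraries with LPS alone, so it was bound to lie higher there. The median line difference of the 16 was 0.12 log2 units untreated and 0.33 with LPS. Plau (urokinase) was at 5.03 ± 0.293 FPKM in control cells with LPS and 79.2 ± 7.72 in shDCLK1 cells with LPS (3.73 log2 units, SE 0.0566, adjusted p = 2.81e-13). The chemokine Ccl2 was at 7.52 ± 1.35 and 66.0 ± 4.30 FPKM. Spp1 (osteopontin) and Plaur (the urokinase receptor) were higher in untreated shDCLK1 cells by 1.16 and 0.76 log2 units. Il6 and Ptgs2 (cyclooxygenase-2) were lower in shDCLK1 cells with LPS, at 106 ± 4.88 against 346 ± 4.43 FPKM and 459 ± 7.68 against 801 ± 11.5 FPKM.

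Genes reported as repressed by ATF3 in mouse macrophages were also read, and 6 of 8 listed were tested. Of these, Il6, Il12b, Nos2 and Ifnb1 passed the filter through LPS libraries alone, so their rise was bound to occur. The other 2, Tnf and Ccl4, rose in both lines. With LPS, where Atf3 was lower in shDCLK1 cells, 0 of the 6 were higher there and 4 were lower by limma (0 and 4 at an unadjusted p under 0.05, 0 and 5 after median-of-ratios scaling), against 34.3% of all genes higher and 14.3% lower. For the chemokine Ccl4 the levels were 2255 ± 100.1 FPKM in shDCLK1 cells and 3318 ± 122 in control cells, and for the cytokine subunit gene Il12b 1.67 ± 0.0700 and 4.14 ± 0.257. Nos2, inducible nitric oxide synthase, rose by 5.69 log2 units in shDCLK1 cells. Tnf was at 501 ± 35.1 FPKM against 532 ± 4.75. Untreated shDCLK1 cells, where Atf3 was also higher, had 3 of the 6 higher (Il6, Tnf and Ccl4) and 0 lower, against 21.4% and 23.6% of all genes. Il6, Il12b, Nos2 and Ifnb1 lay under 1 FPKM in every untreated library. That left them little room for a lower call, so the 0 rests on Tnf and Ccl4. Untreated, Ccl4 was at 97.0 ± 2.72 FPKM in shDCLK1 cells against 31.4 ± 2.81 in control cells. The part of Atf3 in these differences was not tested.

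For small MAF and NRF2 target genes, 9 of 10 listed were tested, and 8 rose and 1 fell with LPS in control cells, 7 and 1 in shDCLK1 cells, against 24.8% and 62.1% of all genes in control cells and 24.9% and 59.7% in shDCLK1 cells. With LPS 2 were higher and 4 lower in shDCLK1 cells, against 34.3% and 14.3% of all genes. Median-of-ratios scaling gave 1 and 5, where all genes split into 2748 and 2652. Their median line difference was 0.07 log2 units untreated and -0.05 with LPS. Hmox1 (heme oxygenase 1) was at 134 ± 8.45 FPKM in shDCLK1 cells with LPS against 78.7 ± 2.77 in control cells with LPS. The cystine transporter gene Slc7a11 rose by 3.67 log2 units in control cells and 3.06 in shDCLK1 cells. Gclc, of glutathione synthesis, changed by -1.53 log2 units with LPS in control cells. Fth1 (ferritin heavy chain) was lower in untreated shDCLK1 cells by -0.34 log2 units and the peroxiredoxin gene Prdx1 with LPS by -0.38. Of the partners of BATF, Irf8 rose in control cells from 51.5 ± 0.940 to 116 ± 1.495 FPKM and was at 59.7 ± 2.52 and 64.6 ± 8.70 FPKM in shDCLK1 cells (interaction -1.05 log2 units, adjusted p = 4.41e-06). Irf4 was low, between 0.853 and 1.79 FPKM in group means, and was called higher with LPS in both lines by 0.53 and 0.59 log2 units.

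Among 13 other immediate-early genes, 8 rose and 4 fell with LPS in control cells, and 8 rose and 5 fell in shDCLK1 cells. Of all genes, 24.8% rose and 62.1% fell in control cells, and 24.9% and 59.7% in shDCLK1 cells. After median-of-ratios scaling the counts were 10 and 2, and 9 and 3. All genes then split into 4730 and 4715, and 4583 and 4539. The response was lower in shDCLK1 cells for 8 and higher for 3, against 16.9% and 32.6% of all genes. It was also lower for 8 and higher for 3 after median-of-ratios scaling, beside 2582 and 2555 of all genes. The list had a median LPS change of 0.85 log2 units in control cells and 0.46 in shDCLK1 cells (all genes -0.38 and -0.29). Dusp1, a phosphatase that inactivates the MAP kinases upstream of AP-1, was at 202 ± 5.05 FPKM in control cells with LPS and 82.8 ± 0.385 in shDCLK1 cells with LPS (-1.28 log2 units, adjusted p = 5.47e-09). Zfp36, which destabilises cytokine mRNA, rose by 3.51 log2 units in control cells, and Ier3 by 3.70 in shDCLK1 cells. Klf2 was higher in shDCLK1 cells with LPS by 1.04 log2 units. Myc and Klf4 were higher in untreated shDCLK1 cells by 1.38 and 1.27 log2 units, as Fos, Fosl1 and Fosl2 were.

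Annotated neighbours limit some values. In GENCODE M21, 5 members share part of their span with a gene on the opposite strand: Fosl1 with Ccdc85b, Junb with Prdx2, Jun with Junos, Jund with Gm11175 and Atf3 with Gm24748. Use of strand in the counting is not stated, so reads from such pairs could not be told apart. Ccdc85b went down with LPS where Fosl1 went up, from 8.80 ± 0.296 to 2.62 ± 0.106 FPKM in control cells and from 7.22 ± 0.757 to 4.19 ± 0.404 in shDCLK1 cells. Prdx2 went from 119 ± 6.54 to 113 ± 4.60 FPKM in control cells and from 114 ± 4.70 to 125 ± 4.71 in shDCLK1 cells. For the other 3 the partner was not analysed here.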

How the data were processed

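The authors deposited 1 table of 18190 genes by 12 libraries with FPKM values in 2 decimals. Per the submitters' processing notes, the tools were StringTie 1.3.0, HISAT2 2.0 and Bowtie 0.12.2, in no stated order, and both mm8 and mm9 are listed as builds. Annotation, filters and use of strand are not given in the sources used here. Groups came from the sample titles. No other column held per-sample values (0), and 18 entries in a column without a name were left aside. By gene ID, 27 symbols that had become dates were restored, none of them a member.

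The filter retained 11052 genes that reached 1 FPKM in 3 libraries or more. limma 3.58.1 in R 4.3.3 fitted log2(FPKM + 1) with 1 coefficient for each group, all 12 libraries together, and a trend of variance on mean. Its two-sided p-values were adjusted by the Benjamini-Hochberg method within each of 5 comparisons, with calls at 0.05. Folds are ratios of mean FPKM. The fit was also run on simulated data in which few genes changed. With LPS most genes changed here, so that run does not bear on the scaling. FPKM hold no read counts, so no counting intervals were made. Relative depth came from low genes whose values lay within 5% of whole multiples of their lowest value.

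All 10 members are named. In each further list and comparison, the 2 called genes with the largest change are named, and genes named beyond it were chosen after their values were seen. For each tested member, the 2 genes with the highest Pearson r are named, without predicted models. The members and lists were chosen with earlier results of these data known. Promoter sequences were matched by gene ID. Their build, GRCm38.p6, is not among those named for the values. Figures were drawn with Python 3.11.15 and matplotlib 3.10.9. Alternatives covered the pseudocount (0.1 and 0.5), the filter, 3 scalings, the trend, the libraries fitted, a replicate block and leaving out each library.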

Additional observations from a re-analysis of the deposited data

Results flagged for a closer look

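For 7 members the change with LPS differed between the lines by the interaction term of limma (adjusted p under 0.05), which is why they are listed. The difference, shDCLK1 cells minus control cells in log2(FPKM + 1), was -0.64 for Fosl1, -1.04 for Fosl2, -0.55 for Junb, -1.33 for Atf3, -1.01 for Batf and -0.65 for Maff. For Jun it was 0.59, a smaller fall in shDCLK1 cells. The LPS change of Batf within each line depends on the pseudocount, since its untreated libraries lie near 0. Its difference between the lines ran from -1.19 to -0.99 over the alternatives other than leaving out libraries. For Fosl1 that difference ran from -0.87 to -0.64.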

How the results depend on the processing

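No called difference of a tested member lost its call when any 1 library was left out, and of 976 member values under alternatives 967 kept their direction and side of the threshold, 8 gained a call and 1 reversed. That one is Atf3 with LPS in shDCLK1 cells, 0.055 log2 units after median-of-ratios scaling (adjusted p = 0.521). Members called lower numbered 2 with LPS in control cells without the filter (Fosb is then tested), 1 with LPS in shDCLK1 cells after median-of-ratios scaling, and 2 between untreated lines with a mean of 5 FPKM or more or after quantile normalization. Leaving out 1 library gave 1 to 2 members lower between untreated lines and 1 to 2 higher in the interaction. Among all genes, those called higher with LPS numbered 4730 (median-of-ratios) and 4376 (quantile) in control cells and 4583 and 4240 in shDCLK1 cells. Between lines with LPS, 2356 were higher after quantile normalization, and 2652 (median-of-ratios) and 2744 (quantile) were lower. These scalings move the median of all genes toward 0.

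Summed FPKM after median-of-ratios scaling, in the order untreated control, control with LPS, untreated shDCLK1 and shDCLK1 with LPS, was 235, 838, 268 and 658 for all members, 27.3, 125, 47.1 and 142 for the Fos genes and 160.3, 571, 164 and 449.7 for the Jun genes. With equal FPKM sums, control cells with LPS had 694, 103 and 473, and the Fos genes in untreated shDCLK1 cells 55.5. Leaving out libraries for these sums was added after the data were seen. Replicate numbers did not pair the libraries: 0 of 18 same-number pairs of deviations had a correlation over 0.1 (-0.107 to 0.0638), and 2 of 12 libraries correlated best with their own number. With the replicate block the members called were 8 higher and 1 lower with LPS in control cells and 7 and 2 in shDCLK1 cells, as without it. The read depth behind each value is unknown.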
